A study of Homo sapiens with 6 samples.

Results

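The genes described here are the 5 transcripts that were recovered less with GST-Ferry than with GST in a pulldown from HEK 293 lysate, together with 2 genes that share their loci, 7 of the 60676 genes in the count table. LPAR6, MIR222HG, ZMPSTE24-DT, RANBP17 and TTC14 were chosen by their adjusted p-value and direction in the comparison of the baits, so their differences are given as a description and not as a test. These 5 were all the genes called lower at an adjusted p under 0.05, 0.0322% of the 15546 tested, while 92 genes or 0.592% were called higher, and nothing is read from that count. RB1, whose span holds LPAR6 on the opposite strand, and ZMPSTE24, which starts next to ZMPSTE24-DT, were chosen by position. GST-Ferry is the FERRY complex, which binds the GTPase RAB5 on early endosomes, carrying a glutathione S-transferase tag, and GST alone is the control for binding to the tag and the resin. Each bait, held on glutathione resin, was incubated with lysate of HEK 293, an established human embryonic kidney cell line, grown here in suspension, and gave 3 libraries of ribosomal-RNA-depleted RNA. All 6 libraries come from this 1 line and no library of the input lysate was used here, so each value is a share of what a bait recovered.

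The GST-Ferry libraries held 2454538 to 6532665 counts and the GST libraries 7390346 to 10466520 counts. A count of 3, taken as the floor, was worth 0.439 to 1.3 CPM with GST-Ferry and 0.273 to 0.442 CPM with GST, where CPM is the count scaled to library size, and this covers counting error only. The columns are named sample and control, which were read as GST-Ferry and GST from the words alone. Genes known to be expressed in HEK 293 were present in every library (NEFL at 116 to 351 CPM, VIM at 590 to 1349 CPM, PAX2, NEFM and LHX1 at 4.12 to 14.4 CPM). The leukocyte marker PTPRC, the hepatocyte marker ALB, the erythroid marker HBB and the endothelial marker CDH5 had 0 to 4 counts a library, while the fibroblast marker COL1A1 had 18.3 to 57.4 CPM. GST 3 stood apart from the other GST libraries (chi-square 47.0 and 50.3 per degree of freedom, against 10.9 between those), and GST-Ferry 1 had 0.249% of its counts in the genes of the bait subunits, against 2.72% and 5.35% in the other GST-Ferry libraries. Values without these libraries are given where they changed a result.

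LPAR6 is a G protein-coupled receptor for lysophosphatidic acid that signals through the G12/13 class of G proteins, and inherited loss of it causes sparse hair. RB1 encodes the retinoblastoma protein, which holds back E2F transcription factors and so entry into S phase. ZMPSTE24 is a membrane-bound zinc metalloprotease that trims farnesylated prelamin A into lamin A, and ZMPSTE24-DT is a noncoding RNA transcribed away from it. MIR222HG is the long noncoding host transcript of miR-221 and miR-222, which repress the cell cycle inhibitor CDKN1B. RANBP17 belongs to the importin beta superfamily of nuclear transport receptors, and TTC14 encodes a protein with tetratricopeptide repeats.

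The mature microRNAs of the MIR222HG locus with a sequence in the source used are shown, because both hairpins have a row of their own in the count table. These microRNAs need not be all that the hairpins give. They lie on the minus strand of chromosome X, at chrX:45746180-45746202, chrX:45747036-45747056 and chrX:45747073-45747094 in the order below. Sequences are from RefSeq on GRCh38.p14, 5′ to 3′, with the seed (bases 2 to 8) in capitals, and miR-221-3p and miR-222-3p share 1 seed.
hsa-miR-221-3p: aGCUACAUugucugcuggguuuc
hsa-miR-222-3p: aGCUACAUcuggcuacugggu
hsa-miR-222-5p: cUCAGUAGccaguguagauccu

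ZMPSTE24-DT and TTC14 each belong to a divergent pair, in which an mRNA and a noncoding transcript start close together and run in opposite directions. Their promoters are shown because the lower gene is the noncoding transcript of one pair (ZMPSTE24-DT) and the mRNA of the other (TTC14). RB1 has such a partner too, RB1-DT, which starts 64 bases away from it and had 2, 0 and 1 counts with GST-Ferry and 9, 9 and 4 with GST, too few to test. The windows are RefSeq's on GRCh38.p14, plus strand, 5′ to 3′, chr1:40257986-40258285 for ZMPSTE24 and chr3:180601913-180602212 for TTC14. Capitals mark the bases between the starts that GENCODE 29 gives to the noncoding transcript and to the mRNA. The starts are 139 bases apart at ZMPSTE24, of which the last 121 lie in the window, and 194 bases apart at TTC14.
ZMPSTE24: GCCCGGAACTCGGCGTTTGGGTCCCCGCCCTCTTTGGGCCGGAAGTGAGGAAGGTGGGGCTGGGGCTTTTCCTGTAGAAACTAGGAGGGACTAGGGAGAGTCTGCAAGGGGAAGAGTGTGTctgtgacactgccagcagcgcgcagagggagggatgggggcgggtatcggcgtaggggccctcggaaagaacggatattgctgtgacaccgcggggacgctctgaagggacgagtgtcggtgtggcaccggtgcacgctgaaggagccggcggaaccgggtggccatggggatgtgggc
TTC14: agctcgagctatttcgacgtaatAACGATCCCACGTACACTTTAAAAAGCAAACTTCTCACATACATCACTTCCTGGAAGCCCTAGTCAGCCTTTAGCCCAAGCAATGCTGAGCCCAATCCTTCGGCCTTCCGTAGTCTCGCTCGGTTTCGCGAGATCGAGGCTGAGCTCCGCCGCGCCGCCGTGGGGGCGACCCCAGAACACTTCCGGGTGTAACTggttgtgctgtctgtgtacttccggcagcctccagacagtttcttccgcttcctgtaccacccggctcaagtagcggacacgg
The ZMPSTE24 window held 22 CpG dinucleotides and the TTC14 window 24, against a median of 14 over 35116 RefSeq windows of that length. Their GC content was 65% and 56.3%, against a median of 58.7%. A RefSeq window existed for 6 of the 7 genes, all but ZMPSTE24-DT. Of the windows not shown, that of RANBP17 held 39 CpG dinucleotides, MIR222HG 11, LPAR6 3 and RB1 0. The windows of LPAR6 (chr13:48413064-48413363) and RB1 (chr13:48476200-48476499) lie inside those genes, away from their GENCODE 29 starts at 48444704 and 48303726. The RB1 value therefore does not describe the bases between RB1 and RB1-DT.

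LPAR6 had the largest fold difference of the 5. It was at 5.27, 3.98 and 3.91 CPM in the 3 GST-Ferry libraries, against 11.4, 19.9 and 16.4 CPM in the 3 GST libraries. Every GST-Ferry value lay below every GST value, and the lowest GST library was 2.16 times the highest GST-Ferry library. The GST-Ferry values rest on 36, 10 and 9 counts, so that GST-Ferry 3 had an exact 95% Poisson interval of 1.79 to 7.43 CPM, which covers counting error only. The log2 fold change, GST-Ferry over GST, was -1.80 ± 0.32 (SE, n = 3 each), and the GST-Ferry mean was 27.7% of the GST mean.

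RB1 did not follow LPAR6. It was at 47.0, 55.7 and 38.7 CPM with GST-Ferry, against 44.4, 39.7 and 57.2 CPM with GST, with means of 47.1 ± 8.49 and 47.1 ± 9.02 CPM (SD, n = 3 each). The groups overlapped throughout. The log2 fold change was 0.00 ± 0.22 (95% interval -0.47 to 0.48, adjusted p = 0.993 by the quasi-likelihood test of edgeR, Benjamini-Hochberg adjusted over all tested genes), an interval that includes differences of moderate size either way.

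Within each library the ratio of these genes does not depend on how libraries are scaled. There were 11.2, 7.14 and 10.1 LPAR6 counts per 100 RB1 counts with GST-Ferry, against 25.6, 50.0 and 28.6 with GST. The groups did not overlap, which is a description, since LPAR6 was chosen by this contrast. The exact 95% binomial interval was 4.48 to 20.1 in GST-Ferry 3 and 20.7 to 31.4 in GST 1, and covers counting error within a library, not the spread between libraries. LPAR6 lies at chromosome 13, 48389567 to 48444704, minus strand, and RB1 at 48303726 to 48599436, plus strand, on GRCh38 as GENCODE 29 places them. None of the 4348 exonic bases of LPAR6 fell in an RB1 exon (0 shared bases). The libraries were strand-specific, but whether the counting used strand is not stated in the sources, so without it RNA from the RB1 intron cannot be told apart from LPAR6 in these counts.

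**Figure D1:**
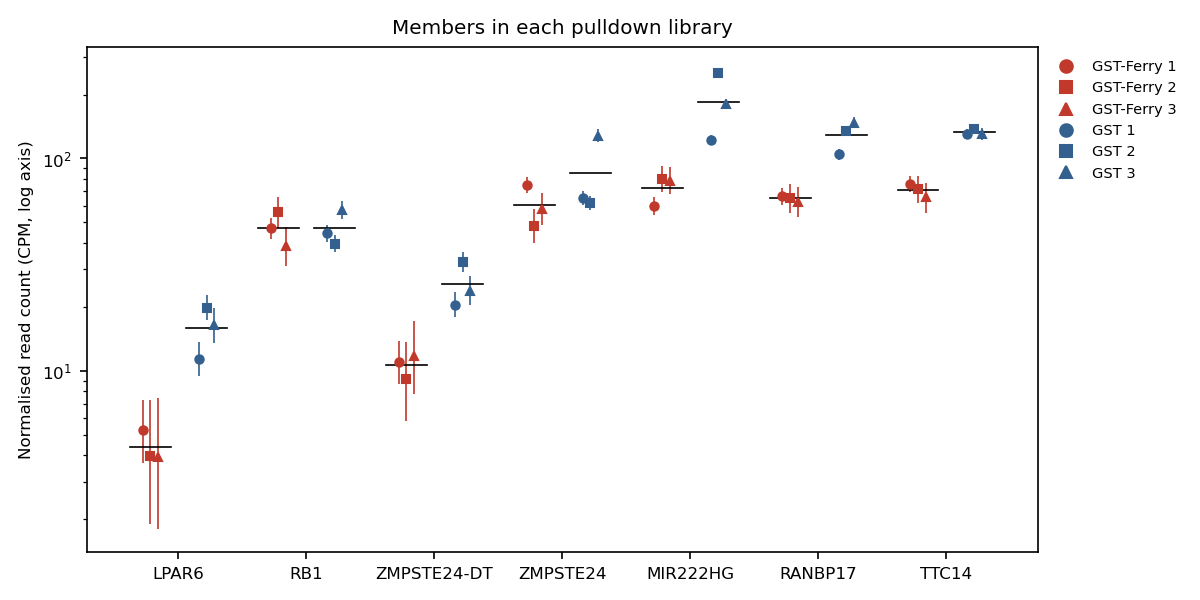
Normalised read count (CPM, log axis) of the 7 genes in each library, GST-Ferry libraries in red left of GST libraries in blue, with the group mean as a black line and exact 95% Poisson intervals for counting error. LPAR6, ZMPSTE24-DT, MIR222HG, RANBP17 and TTC14 show groups that do not overlap, as at LPAR6 (3.91 to 5.27 CPM with GST-Ferry, 11.4 to 19.9 CPM with GST), whereas RB1 and ZMPSTE24 overlap.

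ZMPSTE24-DT, a transcript of 1 exon, was at 10.97, 9.15 and 11.7 CPM with GST-Ferry, against 20.5, 32.5 and 23.9 CPM with GST. Its highest GST-Ferry library was below its lowest GST library, with GST 2 the highest of all. The log2 fold change was -1.27 ± 0.26 (SE), with 10.6 ± 1.33 and 25.6 ± 6.2 CPM (mean ± SD, n = 3 each).

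ZMPSTE24 itself was at 74.8, 48.1 and 57.8 CPM with GST-Ferry, against 65.4, 61.6 and 128 CPM with GST. GST 3 alone was high, and the other GST libraries lay inside the GST-Ferry range. The log2 fold change was -0.48 ± 0.29 (95% interval -1.10 to 0.14, adjusted p = 0.374 by edgeR) and -0.08 without GST 3 (adjusted p = 0.827). RLF, which lies 15.5 kb from ZMPSTE24-DT, was likewise at 128 CPM in GST 3, above the other GST libraries at 59.4 and 73.1 CPM.

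Set against ZMPSTE24 within each library, ZMPSTE24-DT did not separate the baits. There were 14.7, 19.0 and 20.3 ZMPSTE24-DT counts per 100 ZMPSTE24 counts with GST-Ferry, against 31.4, 52.8 and 18.6 with GST. GST 3, the library with the high ZMPSTE24 value, lay inside the GST-Ferry range, and the other GST libraries lay above it. The overlap thus rested on GST 3 alone. This is a description, since ZMPSTE24-DT was chosen by this contrast. ZMPSTE24-DT spans chromosome 1, 40256427 to 40257967, minus strand, and ZMPSTE24 spans 40258107 to 40294184, plus strand, with no exonic base in common.

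**Figure D2:**
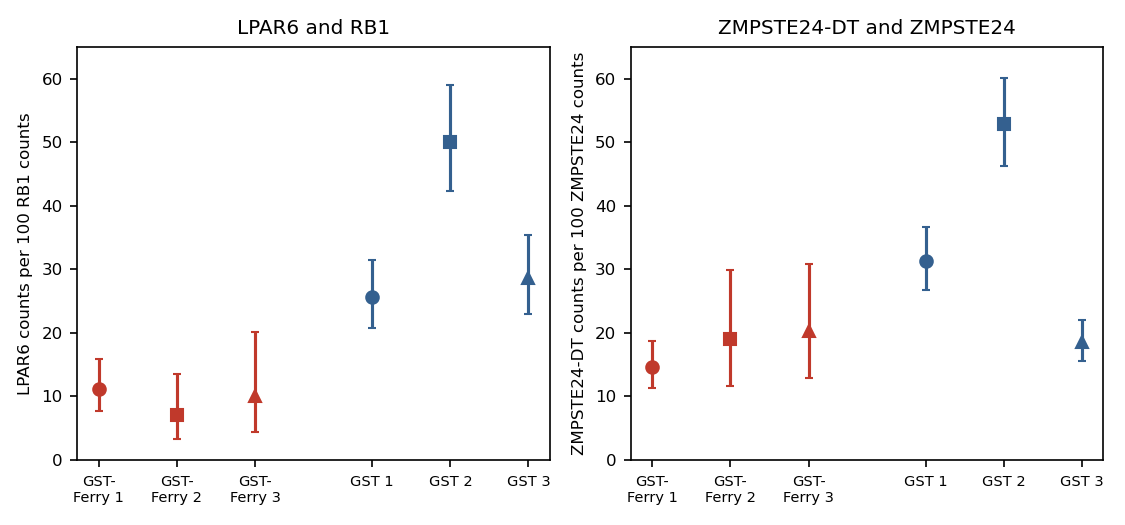
Counts of LPAR6 per 100 counts of RB1 (left) and of ZMPSTE24-DT per 100 counts of ZMPSTE24 (right) in each library, with exact 95% binomial intervals for counting error. The LPAR6 ratio was 7.14 to 11.2 with GST-Ferry and 25.6 to 50.0 with GST, while the ZMPSTE24-DT ratio of GST 3 (18.6) lay among the GST-Ferry values (14.7 to 20.3).

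MIR222HG was the most abundant of the 7 per exonic length with either bait. It was at 59.5, 79.96 and 78.7 CPM with GST-Ferry, against 122, 252 and 181 CPM with GST. The groups did not overlap, and the GST libraries differed among themselves by more than the gap between the groups. On the log2 scale the fold change was -1.35 ± 0.26 (SE), with 72.7 ± 11.4 and 185 ± 64.7 CPM (mean ± SD, n = 3 each).

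The rows of the hairpins themselves were thin. MIR221 had 19, 9 and 5 counts with GST-Ferry and 22, 50 and 42 with GST, and MIR222 had 5, 4 and 4 against 8, 17 and 26. Their log2 fold changes were -0.57 ± 0.46 and -0.70 ± 0.67 (SE; adjusted p = 0.516 and 0.592 by edgeR), and in CPM the groups overlapped for both. Without GST 3 they were -0.27 for MIR221 and -0.02 for MIR222. In GENCODE 29 neither hairpin overlaps an exon of MIR222HG, which spans chromosome X, 45745211 to 45770274, minus strand. The libraries are not described as small-RNA libraries, so these counts are not read as levels of mature microRNA.

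RANBP17 was at 66.6, 65.2 and 62.6 CPM with GST-Ferry, against 105, 134 and 148 CPM with GST. The GST-Ferry libraries were closely alike, with an SD of 3.09% of their mean against 16.95% with GST, and the groups did not overlap. Its log2 fold change was -0.99 ± 0.20 (SE), with 64.8 ± 2.0 and 129 ± 21.8 CPM (mean ± SD, n = 3 each). RANBP17 spans 438 kb of chromosome 5 (170861870 to 171300015, plus strand), at the 98.0th percentile of tested genes, and 2.5% of that span is exonic.

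TTC14 had the smallest fold difference of the 5. It was at 75.8, 71.6 and 65.7 CPM with GST-Ferry, against 130, 137 and 131 CPM with GST, and the lowest GST library was 1.72 times the highest GST-Ferry library. Its log2 fold change was -0.90 ± 0.18 (SE), and the GST-Ferry mean was 53.5% of the GST mean. TTC14 spans chromosome 3, 180602130 to 180617828, plus strand. Its divergent partner TTC14-DT, whose start is shown above, had 0, 1 and 1 counts with GST-Ferry and 7, 13 and 1 with GST, too few to test.

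All 5 lower genes had groups that did not overlap, as did 12.2% of all tested genes with the lower values under GST-Ferry and 27.1% in either direction. Since the rule used this contrast, nothing is read from that count. The adjusted p-values that chose the members were 0.042 for LPAR6, 0.0458 for MIR222HG, 0.0477 for RANBP17 and 0.048 for ZMPSTE24-DT and TTC14, by edgeR. Just outside lay the snoRNA host gene SNHG3 (log2 fold change -1.26, adjusted p = 0.0513) and the potassium channel gene KCNT2 (-1.06, adjusted p = 0.0522), and 11 genes in that direction had an adjusted p of 0.05 to 0.06.

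GST 1 was the lowest GST library for each of the 5 genes, although for TTC14 it was level with GST 3 (130.3 and 130.8 CPM). GST 2 was the highest for LPAR6, ZMPSTE24-DT, MIR222HG and TTC14, and GST 3 for RANBP17. Likeness was measured as the root mean square difference of log2 CPM profiles over the 6 libraries, each centred on its own mean, where 0 is an identical profile. TTC14 and RANBP17 were the nearest pair of members at 0.15, and LPAR6 and TTC14 the farthest pair of the 5 at 0.43. LPAR6 lay 0.90 from RB1, and ZMPSTE24-DT lay 0.59 from ZMPSTE24.

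The nearest profiles among 10980 genes averaging 10 CPM or more included other members. For LPAR6 they were ZMPSTE24-DT (0.28), MIR222HG (0.29) and CD58 (0.29), and for MIR222HG they were ACAD11 (0.22), ZMPSTE24-DT (0.22) and MIR4458HG (0.24). ZMPSTE24-DT was nearest to ACAD11 (0.13), PGBD4 (0.16) and CCDC18-AS1 (0.17). RANBP17 was nearest to PAXBP1 (0.083), NHLRC3 (0.087) and TAF1D (0.089), and TTC14 to PNISR (0.074), PIBF1 (0.10) and LUC7L3 (0.11). All of these genes had lower means with GST-Ferry, as a profile close to that of a lower gene must.

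Levels are comparable between genes only per length, here as CPM per kb of annotated exon. With GST-Ferry the order was MIR222HG (26.1 ± 4.11), ZMPSTE24 (16.9 ± 3.77), TTC14 (9.12 ± 0.65), RB1 (7.30 ± 1.32), ZMPSTE24-DT (6.89 ± 0.86), RANBP17 (5.91 ± 0.18) and LPAR6 (1.01 ± 0.18; SD, n = 3 each). With GST it was MIR222HG (66.4 ± 23.2), ZMPSTE24 (23.8 ± 10.5), TTC14 (17.1 ± 0.5), ZMPSTE24-DT (16.6 ± 4.02), RANBP17 (11.8 ± 1.99), RB1 (7.30 ± 1.4) and LPAR6 (3.65 ± 0.98; SD, n = 3 each). The neighbours in these orders whose libraries overlapped were TTC14 and RB1, RB1 and ZMPSTE24-DT, and ZMPSTE24-DT and RANBP17 with GST-Ferry. With GST they were ZMPSTE24 and TTC14, TTC14 and ZMPSTE24-DT, and ZMPSTE24-DT and RANBP17. By mean, RB1 stood below RANBP17 and ZMPSTE24-DT with GST and above both with GST-Ferry, although its libraries overlapped those of both there.

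Few of the genes around the 5 lower transcripts could be tested. Within 50 kb of their spans GENCODE 29 places 25 other genes in the table, of which 17 had any count and 9 passed the filter on low counts, RB1 and ZMPSTE24 among them. None of the 9 was called by edgeR, against 0.624% of all tested genes in either direction. At an unadjusted p under 0.05 there were 0, against 8.05% of all tested genes lower and 11.3% higher. DESeq2 and limma-voom also called 0. Nothing is read from these counts, which rest on only 9 genes. Their median log2 fold change was -0.40, against -0.03 over all tested genes, with 7 of 9 below 0. That median rested on GST 3: without it the median was -0.02, with 6 of 9 below 0.

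Near LPAR6, RCBTB2, a protein with RCC1-type repeats, had 12.99 ± 2.35 CPM with GST-Ferry and 13.9 ± 4.94 CPM with GST (mean ± SD, n = 3 each). Near ZMPSTE24-DT, the zinc finger gene RLF had a log2 fold change of -0.40 ± 0.27 and the collagen gene COL9A2 of 0.10 ± 0.38 (SE). Inside MIR222HG on the same strand, the noncoding AC234772.2 was at 7.75, 12.3 and 7.39 CPM with GST-Ferry, against 7.39, 9.29 and 22.7 CPM with GST. Its log2 fold change was -0.52 ± 0.41 (SE), and without GST 3, again the high library, it was 0.08, while RLF was then at -0.04. Inside RANBP17, the pseudogene AC008514.2 had a log2 fold change of -0.10 ± 0.44 (SE), and next to it the homeobox gene TLX3, with 16, 2 and 5 counts with GST-Ferry and 13, 10 and 6 with GST, was too low to test. No neighbour of TTC14 was tested. CCDC39, which overlaps TTC14 on the other strand and is listed under 2 IDs, had at most 6 counts in all.

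**Figure D3:**
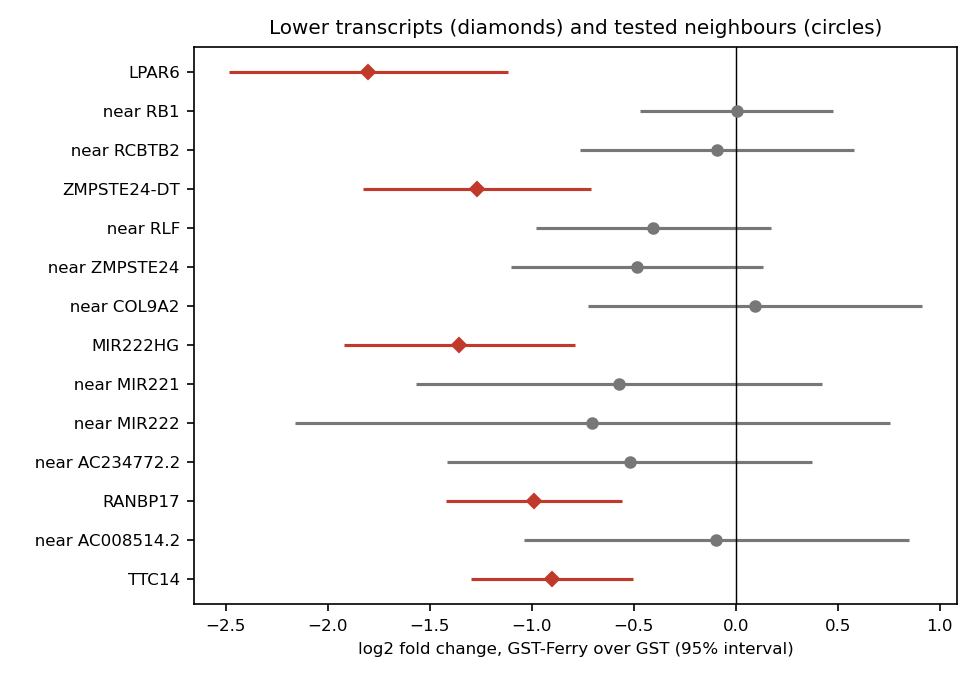
log2 fold change, GST-Ferry over GST, with its 95% interval, of the 5 lower transcripts (red diamonds) and of the tested genes within 50 kb (grey circles, each listed below the transcript it lies near). Every grey interval includes 0, as for RB1 (-0.47 to 0.48), and TTC14 has no tested neighbour.

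A GC content below the median was shared by all 7 genes, lower or not. The longest annotated transcript was 39.0% GC for LPAR6, 40.4% for ZMPSTE24-DT, 35.3% for TTC14, 36.6% for MIR222HG and 42.2% for RANBP17, and 37.3% for RB1 and 37.97% for ZMPSTE24. The median of tested genes was 48.0%, with a lower quartile of 41.9%. Fold change moved with GC content over all tested genes. In the quartile with the lowest GC the median log2 fold change was -0.32 and 82.7% of genes were below 0, while in the quartile with the highest GC the median was 0.33 and 22.3% were below 0.

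Among the 3860 genes of the lowest GC quartile, LPAR6 ranked 7 from the bottom by fold change, MIR222HG 25, ZMPSTE24-DT 32 and TTC14 157, and ZMPSTE24 ranked 1133 and RB1 3205. RANBP17 ranked 98 of 3859 in the next quartile. Low ranks of the genes chosen as lower follow from that choice, so nothing is read from them. With an offset for GC content fitted in each library, log2 fold changes were -1.56 for LPAR6 (adjusted p = 0.0485), -0.81 for RANBP17 (0.0426), -1.07 for ZMPSTE24-DT (0.0631), -1.05 for MIR222HG (0.0785) and -0.57 for TTC14 (0.158), all adjusted p by edgeR. In that fit RB1 was at 0.33 (adjusted p = 0.311) and ZMPSTE24 at -0.12 (adjusted p = 0.779). This offset was chosen after the data were seen.

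Gene structure was not shared. ZMPSTE24-DT has 1 exon and MIR222HG 2, in their longest annotated transcripts, whereas TTC14 has 5, LPAR6 7 and RANBP17 30. Exonic length ran from 1.54 kb for ZMPSTE24-DT to 10.965 kb for RANBP17, on either side of the median of 4.73 kb. Transcripts annotated with a retained intron made up 18.2% of those of RANBP17 (4 of 22), and 0 of those of the other 4 lower genes.

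By gene type, values are over genes that passed the filter on low counts. A gene with few counts can pass through the libraries of either bait alone. Among tested lincRNA genes, the GENCODE 29 type of MIR222HG, the median log2 fold change was -0.36 and 80.1% of 549 genes lay below 0, and MIR222HG ranked 28 from the bottom. Antisense genes, the type of ZMPSTE24-DT there, had a median of -0.36 with 74.9% of 681 genes below 0, and ZMPSTE24-DT ranked 32. Protein-coding genes had a median of 0.02 with 48.0% of 12864 below 0, and LPAR6 ranked 3, RANBP17 62 and TTC14 113. These low ranks likewise follow from the choice of the genes as lower.

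The relatives of each member were set beside it, without a test of any list. None of the list members below was called by edgeR, in a background of 0.624% called, and the counts by other settings are given with each list. Of all tested genes, 8.05% were lower and 11.3% higher at an unadjusted p under 0.05. DESeq2 called 1.14% lower and 3.43% higher, limma-voom 0% lower and 0.0901% higher, and edgeR without GST 3 called 3.54% lower and 4.45% higher. Of 15 genes of lysophosphatidic acid signalling other than LPAR6, 12 were tested, with a median log2 fold change of -0.10, and 1 was lower and 2 higher at an unadjusted p under 0.05 (DESeq2 and limma-voom called 0, edgeR without GST 3 called 1 higher). LPAR1 had the lowest value at -0.60 ± 0.25 (SE), with 12.6 ± 1.79 CPM with GST-Ferry and 19.6 ± 3.91 CPM with GST (mean ± SD, n = 3 each). The receptors LPAR2 (0.11) and LPAR3 (-0.23) had groups that overlapped, LPAR5 was too low to test and LPAR4 had 0 counts. RHOA, the small GTPase downstream of these receptors and the most abundant of the list, was at 0.65 ± 0.23 (adjusted p = 0.159 by edgeR).

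All 24 genes of the RB1 pathway list were tested, with a median of 0.07, and 0 were lower and 6 higher at an unadjusted p under 0.05 (DESeq2 and edgeR without GST 3 each called 3 higher, limma-voom 0). The RB1 paralogue RBL1 had the lowest log2 fold change at -0.41 ± 0.22 (SE) and cyclin D2 (CCND2) was the most abundant at 0.31 ± 0.22. CDKN1B, the target of miR-221 and miR-222 named above, was at -0.04 ± 0.19. All 13 genes of prelamin A processing and the nuclear lamina were tested, with a median of 0.23, and 0 were lower and 4 higher at an unadjusted p under 0.05 (DESeq2 and edgeR without GST 3 each called 2 higher, limma-voom 0). Among them the lamin B receptor LBR had the lowest value, -0.45 ± 0.22, the lamina-associated TMPO was the most abundant at -0.11 ± 0.27, and LMNA, which encodes the substrate of ZMPSTE24, was at 0.74 ± 0.23 (adjusted p = 0.128 by edgeR).

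RANBP17 and TTC14 were chosen as lower in this contrast, so nothing is read from their places below their relatives. RANBP17 lay below all 19 tested relatives of the importin beta superfamily, whose median was -0.11 with 11 below 0. Of these, 1 was lower and 0 higher at an unadjusted p under 0.05, and DESeq2, limma-voom and edgeR without GST 3 called 0. The exportin XPO1 had the lowest value of these at -0.55 ± 0.25 (SE; adjusted p = 0.251 by edgeR), KPNB1 was the most abundant at 0.33 ± 0.19, and XPO7, the closest relative of RANBP17, was at 0.38 ± 0.21. TTC14 lay below all 31 tested of 38 other TTC-named genes, which share a repeat and not a function, with a median of -0.03. TTC21A was the lowest there at -0.75 ± 0.28 and TTC3 the most abundant at -0.17 ± 0.20, and 4 were lower and 0 higher at an unadjusted p under 0.05 (DESeq2 and limma-voom called 0, edgeR without GST 3 called 2 lower).

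The lists of MIR222HG and ZMPSTE24-DT can be described only through the members that passed the filter on low counts. A gene with few counts can pass through the libraries of 1 bait alone, GST or GST-Ferry, and is then lower with the other bait. Of 84 other host genes 26 passed the filter, with a median of -0.42, 18 of them below 0, and 7 lower and 1 higher at an unadjusted p under 0.05. DESeq2 called 5 of them lower, edgeR without GST 3 called 7 and limma-voom 0, against the shares of all tested genes given above (8.05% lower unadjusted, 1.14% lower by DESeq2, 3.54% lower without GST 3). MIR17HG, the host of the miR-17-92 cluster and the most abundant, was at 79.1, 77.2 and 67.8 CPM with GST-Ferry, against 110, 129 and 193 CPM with GST (log2 fold change -0.94 ± 0.23; adjusted p = 0.0753 by edgeR). MIR181A1HG had the lowest value, -1.16 ± 0.35 (SE), above that of MIR222HG.

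Other divergent transcripts had 588 rows under 587 symbols, and 205 of the rows passed the filter. Their median was -0.53 with 178 below 0, against 52.2% of all tested genes. At an unadjusted p under 0.05, 51 were lower and 2 higher, DESeq2 called 6 lower, edgeR without GST 3 called 39 and limma-voom 0, to be read against the same shares. SUGT1-DT had the lowest value, -2.29 ± 0.59 (SE), at 0 to 1.17 CPM with GST-Ferry, which is at or under the floor in GST-Ferry 2 and 3, and 2.95 to 5.65 CPM with GST. TMEM161B-DT, the most abundant, was at -0.45 ± 0.27. These counts describe the transcripts that passed and not all divergent transcripts.

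**Figure D4:**
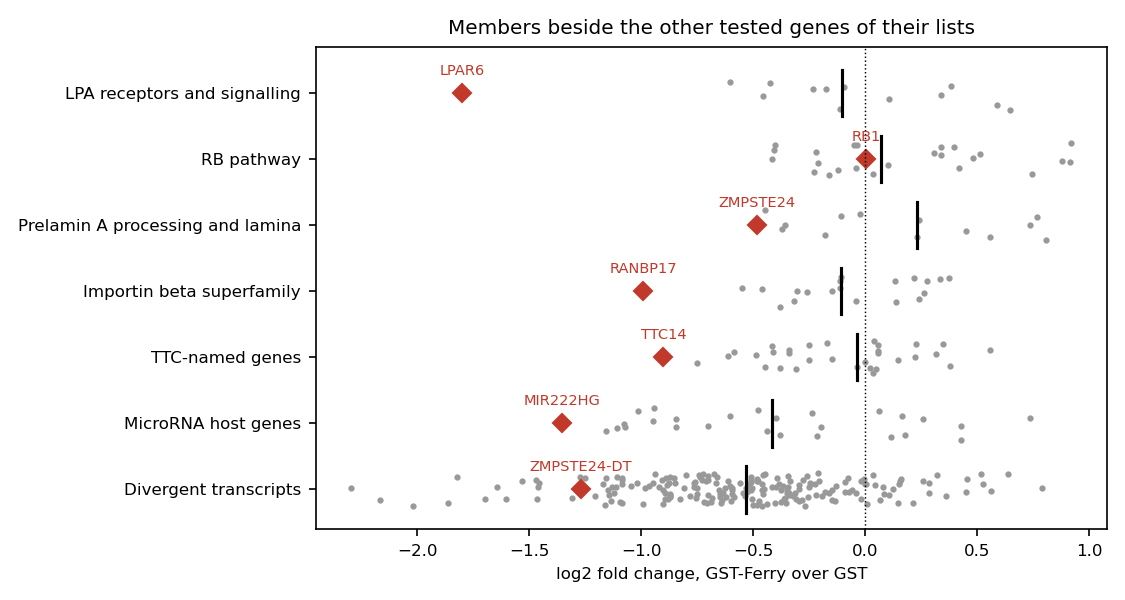
log2 fold change, GST-Ferry over GST, of each member (red diamond) beside the other tested genes of its list (grey points, with the median as a black bar). RANBP17 and TTC14 lie below every other gene of their lists, which their choice as lower genes favours. MIR222HG (-1.35) and ZMPSTE24-DT (-1.27), chosen in the same way, lie in lists with medians of -0.42 and -0.53.

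The direction of the 5 lower genes held in all 17 other settings, which groups without overlap largely fix, but their calls did not. Log2 fold changes ran from -2.01 to -1.56 for LPAR6, from -1.60 to -1.05 for MIR222HG, from -1.42 to -1.07 for ZMPSTE24-DT, from -1.13 to -0.81 for RANBP17 and from -0.96 to -0.57 for TTC14. LPAR6 and RANBP17 were called in 10 of 17 settings, MIR222HG in 9, ZMPSTE24-DT in 8 and TTC14 in 7. None of the 5 was called with RLE size factors, library sizes alone or limma-voom. The same held when any single GST-Ferry library or GST 2 was left out, where the highest adjusted p was 0.425 by edgeR, and the count of genes called lower was 0 without GST-Ferry 2, GST-Ferry 3 or GST 2 (794, 667 and 1222 were lower at an unadjusted p under 0.05). DESeq2 called all 5, and so did edgeR without GST 3, among 558 genes then called lower. ZMPSTE24 and RB1 were called in none of the 17 settings.

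**Figure D5:**
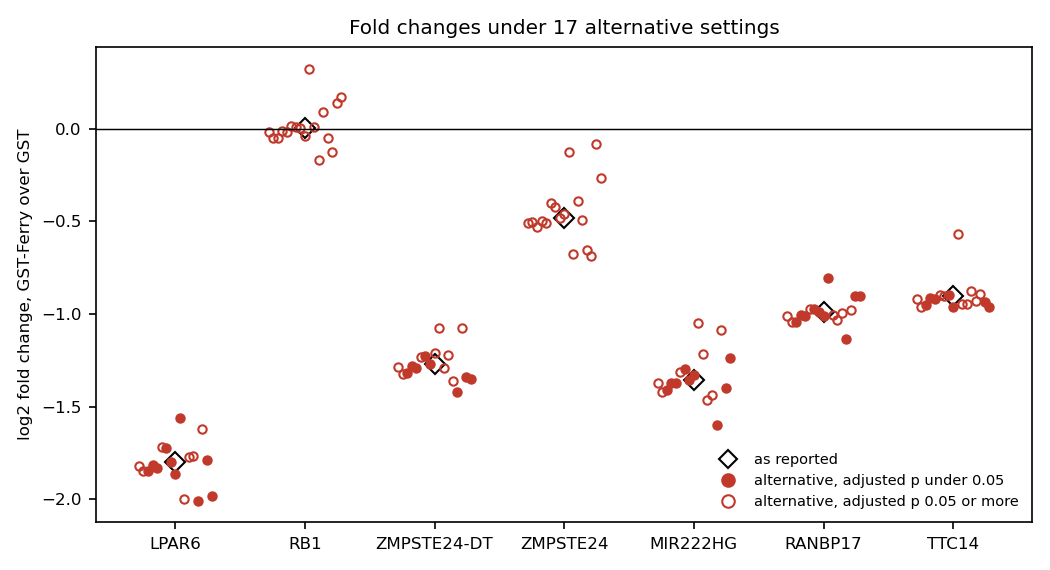
log2 fold change, GST-Ferry over GST, of the 7 genes as reported (black diamonds) and under 17 other settings (red circles, filled where the adjusted p was under 0.05). The 5 lower genes stay below 0 throughout while their calls come and go, ZMPSTE24 ranges from -0.69 to -0.08, and RB1 lies on both sides of 0 (-0.17 to 0.33).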

How the data were processed

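RNA from 3 pulldowns with GST-Ferry and 3 with GST was sequenced. The authors deposited raw read counts per Ensembl gene, 1 column per library. The build GRCh38.p13, STAR 2.5.2b and bcl2fastq 2.19.1 are named in the submitters' processing notes. How reads were assigned to genes, with which annotation and strand setting, is not given in the sources used here, and so counts of overlapping genes are uncertain. Replicates are not labelled as separate cultures, and p-values cover the spread between these libraries, which may be technical.

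Symbols for 58575 IDs came from a table of gene names and GENCODE 29, which placed 58503. Genes were filtered with filterByExpr (minimum count 10, minimum total 15), which left 15546, and scaled with TMM. CPM uses the scaled library sizes. The baits were compared with edgeR 4.0.16 (R 4.3.3), quasi-likelihood test, two-sided, no covariate, Benjamini-Hochberg adjustment over all tested genes, threshold 0.05. SE is the fold change over the root of F. The procedure was run on simulated counts with the same dispersion for every gene and no outlying library. These data differ from that, so the run does not show how the test behaves on them. Alternatives used DESeq2 1.42.0, limma 3.58.1 (voom), other scalings and filters, thinning, left-out libraries, and a GC offset for each library (lowess of centred log2 CPM on GC content) chosen after seeing the data. Profiles used log2 with 2 counts added. Libraries of 1 bait differed by more than sampling (chi-square 4.43 to 50.3 per degree of freedom). Named were the members, tested neighbours, and the most abundant and lowest gene of each list. Also named were the 2 genes just outside the threshold and the 3 nearest profiles. Other named genes (NEFL, VIM, LPAR2 to LPAR5, CDKN1B, LMNA, XPO7, TLX3, CCDC39, TTC14-DT, RB1-DT) were chosen after their values were seen, apart from the markers. Members and lists were chosen with earlier results of these data known. Figures were drawn with matplotlib 3.10.9.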

Additional observations from a re-analysis of the deposited data

How the results depend on the processing

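The number of genes called depended on the processing and on single libraries. Against 5 lower and 92 higher genes, the test called 0 lower and 11 higher with RLE size factors, 0 and 7 with library sizes alone, 0 and 14 with limma-voom, and 0 and 0 at a threshold of 0.01, although 1251 genes were lower and 1755 higher at an unadjusted p under 0.05 as reported. Those unadjusted counts were 1380 and 1633 with RLE size factors, 1528 and 1207 with library sizes alone, and 984 and 1771 with limma-voom. It called 323 and 421 without a filter on low counts, which shifted the median of all genes by -0.15 on the log2 scale, 177 and 534 with DESeq2, 19 and 146 after thinning to equal depth, and 13 and 85 with the GC offset. Leaving out libraries gave 0 to 992 lower and 0 to 1754 higher genes. The lowest came without GST-Ferry 2 (794 lower and 910 higher at an unadjusted p under 0.05) and the highest without GST 3 and GST-Ferry 1 together, while leaving out GST 3 alone gave 558 and 701. The cause of these differences was not tested. With the replicate number as a block it called 28 lower and 167 higher, and TTC14 was lost (adjusted p = 0.0547 by edgeR). The labels do not say that same-numbered libraries are pairs, so the numbers were not taken as pairs. Deviations of same-numbered libraries correlated at 0.25, 0.079 and -0.13, which does not settle the question.

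Genes with a fold change near 0 changed sign. RB1 had a log2 fold change of -0.015 with RLE size factors and with DESeq2, -0.048 with library sizes alone, -0.049 without a filter, -0.012 with a stricter filter, -0.040 after thinning and -0.17 to 0.17 over left-out libraries. RCBTB2 was at 0.0011 with the replicate block and 0.021 with the GC offset, AC234772.2 at 0.15, COL9A2 at -0.28 and AC008514.2 at 0.077 with that offset. Over left-out libraries these 4 ran from -0.38 to 0.13, from -0.82 to 0.25, from -0.21 to 0.35 and from -0.29 to 0.088, and RLF from -0.63 to 0.010. Removing the bait subunit genes or filtering more strictly changed no call of the 7 genes. LPAR6 rests on 9 to 36 counts in the GST-Ferry libraries, which limits its precision, as does its spread between libraries (a CV of 17.4% with GST-Ferry and 26.9% with GST).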
